A study of Mus musculus with 6 samples.

Results

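Glutathione and antioxidant defence genes were examined in astrocytes from 2 regions of the mouse brain, the neocortex and the cerebellum. The members were 43 genes listed by their function, and their probe sets were found by gene symbol in the platform annotation, so that 40 of them, among 18193 genes in all, had 76 of the 45037 probe sets analysed. Of these genes, 39 were bright enough to be tested. Gsta3, a glutathione transferase gene, had a highest signal of 125.6 on any array and was not tested, the probe sets that list Prdx1 also list another gene and were not used, and Prdx5 and Prdx6 were not analysed here. Each region was represented by 3 single-colour oligonucleotide arrays, made from total RNA. The strain ICR is labelled for the neocortical arrays alone, and no genotype, treatment, age or culture condition is given for either region. Nothing states that arrays of a region came from separate animals or preparations, so p-values here cover only the spread among these samples, in which technical variation may have a share.

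Glutathione is a small thiol that cells make in a pair of enzymatic steps and use to reduce peroxides and to tag reactive compounds for export. Astrocytes are known to hold much of the brain's glutathione and to supply its building blocks to neurons. Thioredoxin, peroxiredoxins, superoxide dismutases, catalase and the metal-binding metallothioneins act beside it, and the transcription factor Nrf2 (gene Nfe2l2), held back by Keap1, drives many of these genes through a DNA sequence called the antioxidant response element.

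By the test used throughout, 9 members were lower and 2 were higher in cerebellar than in neocortical astrocytes, and 28 did not pass. The lower genes were Gstm1, Mt3, Gclc, Txnrd1, Gsr, Gclm, Nfe2l2, Gstt1 and Gstm5, and the higher genes were Sod3 and Hmox1. Signal is the deposited intensity after quantile normalization, in arbitrary units. The brightest probe set stood for each gene, and a gene passed when its adjusted p in the limma fit over all 27022 tested probe sets was under 0.05. The called members were 28.2% of those tested, against 12.7% of all 12616 genes tested. By direction, 23.1% were lower and 5.13% were higher, against backgrounds of 7.36% and 5.3%. The members were bright, with a median at the 85.6th percentile of the genes tested, and of genes at least that bright 17.1% were called and 10.1% were called lower. The median log2 difference over the 39 members was -0.14, against -0.015 over all 12616 genes and 0.01 over all probe sets tested. On the cerebellar arrays 1 to 3 the median member lay -0.17, -0.19 and -0.13 from its neocortical mean, so the shift was of like size on each. The groups did not overlap for 16 of the 39 members in the lower and 3 of the 39 in the higher direction. Of all 12616 genes, 2313 (18.3%) and 2015 (16%) did not overlap in these directions.

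Each of the 11 called members kept its sign under every alternative setting that was computed for it. The counts, however, changed with the array left out. Without neocortical replicate 1, 2 or 3, the lower members numbered 4, 5 and 5 and the higher members 1, 1 and 0, and without cerebellar replicate 1 or 3 there was 1 higher member. Without a variance trend in the limma fit, Gclc, Gstm5, Gstt1, Nfe2l2, Sod3 and Hmox1 lost their call, at adjusted p from 0.0508 (Sod3) to 0.133 (Gstm5). With no filter on dim probe sets, Gclc, Gsr, Nfe2l2, Sod3 and Hmox1 lost it, at limma adjusted p from 0.0732 (Gsr) to 0.116 (Sod3). With arrays scaled by their median, 12 members were lower and 1 was higher, and the split over all probe sets was 2105 lower and 819 higher, against 1545 and 1319 with quantile normalization. RNA integrity was gauged by the Gapdh control probe sets, whose signal at the 3′ end over that at the 5′ end was 0.913, 1 and 1.07 on cerebellar and 0.872, 0.865 and 0.883 on neocortical arrays without overlap (two-sided exact permutation p = 0.1, the smallest that 3 against 3 allow). The same ratio of the actin control was 1.48, 1.42 and 1.62 on cerebellar and 1.4, 1.35 and 1.44 on neocortical arrays, with overlap (exact permutation p = 0.2). The part of RNA integrity in the results was not tested. RNA was measured in bulk, so fewer cells of a type and less RNA per cell cannot be told apart.

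**Figure D1:**
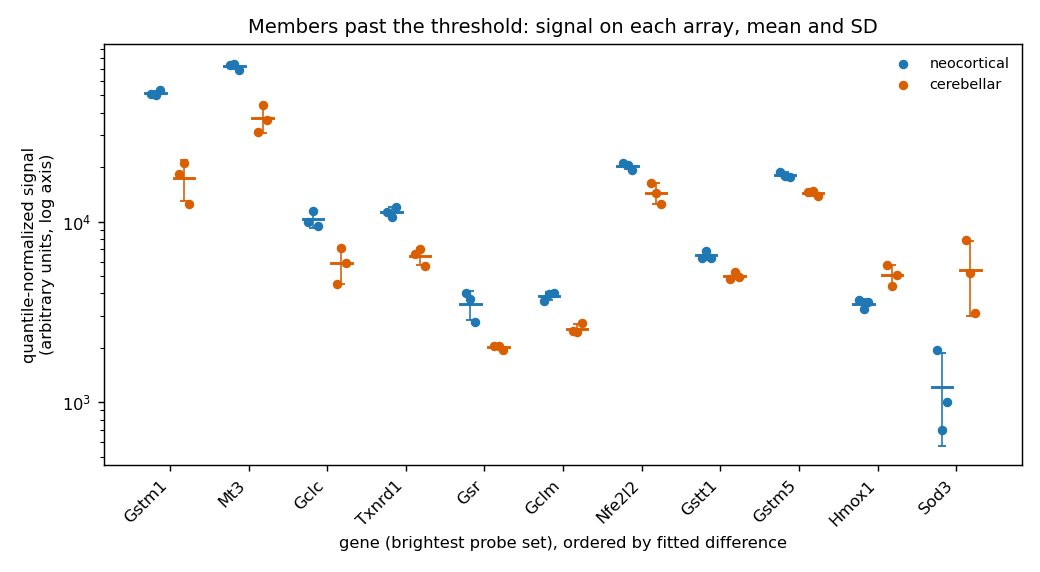
Quantile-normalized signal (arbitrary units, log axis) of the 11 members past the threshold, with 1 point per array, the mean as a bar and the SD as a whisker (n = 3 arrays per region). The 9 genes on the left are lower on every cerebellar array than on any neocortical array, and Hmox1 and Sod3 are higher.

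Nfe2l2, which encodes Nrf2, was itself lower in cerebellar astrocytes. Its signal was 16265, 14351 and 12463 on the cerebellar arrays and 21002, 20470 and 19385 on the neocortical arrays. All cerebellar values lay below all neocortical ones, and the fitted ratio was 1.42-fold (log2 difference -0.51 ± 0.105 SE, limma adjusted p = 0.0181). A second, dim probe set of Nfe2l2 read 192.4 to 283.2 over the 6 arrays, inside the range of bacterial control probe sets (up to 269.2) on all arrays but cerebellar replicate 3, and did not differ detectably (0.06 ± 0.319 SE). With the mean of both probe sets the adjusted p was 0.224. Without neocortical replicate 1, 2 or 3 the adjusted p was 0.0795, 0.0651 and 0.0582, with log2 differences of -0.48, -0.50 and -0.54. Keap1, the adaptor that marks Nrf2 for destruction, read 2278, 2599 and 2473 on cerebellar and 2273, 2446 and 2737 on neocortical arrays. The groups overlapped and the log2 difference was -0.02, with a 95% interval from -0.30 to 0.26. On the same array, Nfe2l2 relative to Keap1 lay -0.20, -0.57 and -0.70 (log2) from its neocortical mean on the cerebellar arrays. The regions overlapped for this ratio (exact permutation p = 0.2, Benjamini-Hochberg p = 0.225 over 9 pairs of members chosen after their values were seen).

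Promoter sequence is shown for the called members whose window upstream of a RefSeq start (GRCm38.p6) holds the core letters of the antioxidant response element, TGACNNNGC, on either strand. The windows are 250 bases long, end just before the start and are printed 5′ to 3′ on the gene's strand, with the matching letters in capitals. Of the 43 members, 35 had a window in the RefSeq table, among them 7 of the 11 called genes. A match was present in 9 of these 35 members (25.7%), and in 11.5% of all 27025 genes with a window. Of the 7 lower members with a window, 4 had a match. A match is a description of letters and not evidence of binding.
Gclm (chr3:122245307-122245556, plus strand): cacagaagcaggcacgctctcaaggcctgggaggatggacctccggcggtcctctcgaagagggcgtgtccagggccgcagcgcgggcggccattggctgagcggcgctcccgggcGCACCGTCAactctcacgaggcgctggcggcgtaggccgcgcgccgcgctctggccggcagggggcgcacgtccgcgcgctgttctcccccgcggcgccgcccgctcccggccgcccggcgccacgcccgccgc
Gstm5 (chr3:107895604-107895853, plus strand): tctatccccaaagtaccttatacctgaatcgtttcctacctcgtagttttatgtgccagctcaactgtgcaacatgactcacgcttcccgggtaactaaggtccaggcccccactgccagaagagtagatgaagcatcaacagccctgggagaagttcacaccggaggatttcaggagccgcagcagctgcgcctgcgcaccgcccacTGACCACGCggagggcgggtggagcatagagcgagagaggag
Nfe2l2 (chr2:75704664-75704913, minus strand): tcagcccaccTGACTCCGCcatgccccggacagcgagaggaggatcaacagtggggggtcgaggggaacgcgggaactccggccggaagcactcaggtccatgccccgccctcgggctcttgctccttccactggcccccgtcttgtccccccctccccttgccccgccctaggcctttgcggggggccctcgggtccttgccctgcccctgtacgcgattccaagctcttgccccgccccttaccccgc
Txnrd1 (chr10:82858956-82859205, plus strand, 1 of 3 windows of this gene): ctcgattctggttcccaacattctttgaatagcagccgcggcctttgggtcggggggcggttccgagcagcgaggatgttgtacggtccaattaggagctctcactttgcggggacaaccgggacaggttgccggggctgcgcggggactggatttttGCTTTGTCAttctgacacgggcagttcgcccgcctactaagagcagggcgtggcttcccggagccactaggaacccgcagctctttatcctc

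In Gclm the match began 134 bases before the start and read TGACGGTGC on the opposite strand. In Txnrd1 it read TGACAAAGC, also on the opposite strand, and began 92 bases before the start. Gstm5 held TGACCACGC at 42 bases and Nfe2l2 held TGACTCCGC at 240 bases before the start, both on the gene's strand. The start used lies inside the annotated gene for Txnrd1, with all 250 bases within it, and for Gclm, with 70 bases within it. Among members that did not pass, Sod1, Mgst1 and Mt2 also held a match, so the letters were found in members of either outcome.

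Both subunit genes of the ligase that opens glutathione synthesis were lower in cerebellar astrocytes. Gclc, the catalytic subunit of glutamate-cysteine ligase and so of the rate-limiting step, read 4503, 7164 and 5922 on the cerebellar arrays and 9973, 11463 and 9396 on the neocortical arrays. The groups did not overlap, with cerebellar replicate 1 the lowest, and Gclc was 1.78-fold lower in cerebellar astrocytes (log2 difference -0.83 ± 0.163 SE, limma adjusted p = 0.0141). Its other probe set gave 3125, 3952 and 3817 against 7160, 7868 and 7292, a 2.06-fold difference in the same direction. Gclm, the modifier subunit of the same ligase, read 2464, 2456 and 2731 on cerebellar and 3628, 3969 and 4025 on neocortical arrays. It was 1.52-fold lower without overlap (-0.60 ± 0.109 SE, limma adjusted p = 0.0101), and its other probe set was 1.64-fold lower and also passed. Gss, the synthetase of the closing step, read 1545, 1228 and 1321 against 1555, 1263 and 1266. Its groups overlapped, and the 95% interval of its log2 difference ran from -0.35 to 0.36. The difference between Gclc and Gss on the same array, relative to its neocortical mean, was -1.38, -0.37 and -0.75 on the cerebellar arrays, lower than on every neocortical array (exact permutation p = 0.1, Benjamini-Hochberg p = 0.129 over 9 pairs of members chosen after their values were seen).

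Gsr, the reductase that returns oxidised glutathione to its working form, read 2040, 2047 and 1949 on cerebellar and 4013, 3724 and 2785 on neocortical arrays. Cerebellar values were close together and all lower, by 1.72-fold in the fit (-0.78 ± 0.15 SE, limma adjusted p = 0.0126). The other Gsr probe set was 1.36-fold lower without overlap and did not pass. Ggt5, which cleaves glutathione outside the cell, read 528.7, 561.8 and 725.1 against 596.7, 729.3 and 601.1, with overlap. Calls in this group moved with single neocortical arrays. Without neocortical replicate 1 or 2 the adjusted p was 0.0524 and 0.0642 for Gclc and 0.0614 and 0.0593 for Gsr, and without neocortical replicate 3 it was 0.0588 for Gclm.

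**Figure D2:**
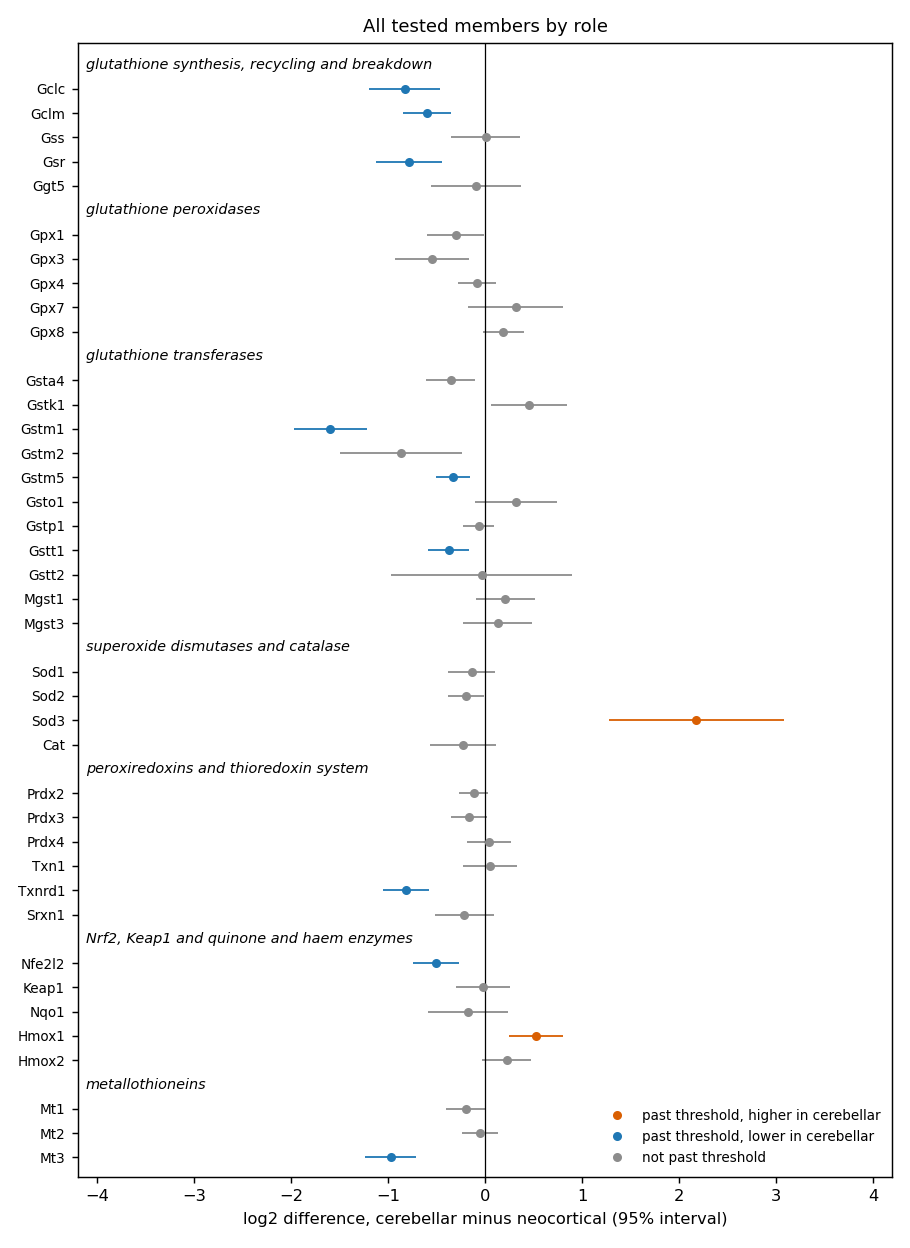
Fitted log2 difference (cerebellar minus neocortical, horizontal axis) with its 95% interval, not adjusted for the number of genes, for the 39 tested members grouped by role. Blue points are lower and orange points higher in cerebellar astrocytes past the threshold, and grey points did not pass. Gstm1 lies farthest to the left at -1.60 and Sod3 farthest to the right at 2.18.

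Glutathione transferases, which join glutathione to reactive compounds, were lower for 3 of 11 tested members and higher for none. Gstm1 had the largest lower difference of all members. It read 18439, 21184 and 12486 on cerebellar and 50638, 49910 and 53286 on neocortical arrays. The neocortical values were tight, the cerebellar values spread more, and the gene was 3.02-fold lower (log2 difference -1.60 ± 0.167 SE, limma adjusted p = 0.000704). All 4 of its probe sets passed, with log2 differences of -1.60, -1.24, -1.83 and -1.78. Genes of the Gstm family are related copies in a cluster. Probe sets with the suffix _x can bind more than 1 copy, so part of this signal may belong to relatives. The probe sets at -1.24 and -1.78 do not carry that suffix.

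Gstm5, a neighbour in that cluster, had a smaller difference. It read 14645, 14789 and 13760 on cerebellar and 18822, 17840 and 17572 on neocortical arrays, without overlap, and was 1.26-fold lower (-0.33 ± 0.078 SE, limma adjusted p = 0.0296). Gstm2 read 3984, 1838 and 3495 against 6489, 4178 and 5733. It did not overlap and had a log2 difference of -0.87 ± 0.278 (SE), yet did not pass (limma adjusted p = 0.0835). With the replicate number as a block its adjusted p was 0.00474, without cerebellar replicate 1 it was 0.0405, and with arrays scaled by their median it was 0.0262. On the same array, Gstm1 relative to Gstm5 lay -1.17, -0.99 and -1.64 from its neocortical mean on the cerebellar arrays (exact permutation p = 0.1, adjusted p = 0.129 over the same 9 pairs). In GRCm38.p6 Gstm5, Gstm2 and Gstm1 lie in that order on chromosome 3 within 122.1 kb.

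Gstt1, a theta-class transferase, read 4813, 5238 and 4961 on cerebellar and 6298, 6904 and 6306 on neocortical arrays. It was 1.3-fold lower without overlap (-0.38 ± 0.094 SE, limma adjusted p = 0.0362). Gstt2 read 111.9 to 251.0, inside the range of the bacterial controls on every array, so its level carries little information. The calls of Gstm5 and Gstt1 were lost when single arrays were left out. Without neocortical replicate 1, 2 or 3 or cerebellar replicate 3, the adjusted p of Gstm5 was 0.13, 0.0775, 0.0909 and 0.0779. For Gstt1 it was 0.105, 0.129, 0.104 and 0.0772, and 0.0712 without cerebellar replicate 1.

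Other transferases did not pass. Gsta4, which acts on products of lipid oxidation, read 15959, 20371 and 19892 on cerebellar and 23222, 26051 and 22444 on neocortical arrays, without overlap (-0.36 ± 0.111 SE, limma adjusted p = 0.0749, with 0.0403 under the replicate block and 0.0319 under median scaling). Gstp1, the pi-class enzyme, read 22203 to 23913 against 24070 to 24414, a log2 difference of -0.07 whose 95% interval ran from -0.23 to 0.09. Gstk1, a mitochondrial and peroxisomal transferase, had the opposite sign, at 1476, 1456 and 1103 against 1043, 1015 and 869.9 (0.45 ± 0.172 SE, limma adjusted p = 0.132). Gsto1 (0.32 ± 0.189) and the membrane transferases Mgst1 (0.21 ± 0.135) and Mgst3 (0.13 ± 0.159, all log2 ± SE) overlapped between regions.

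**Figure D3:**
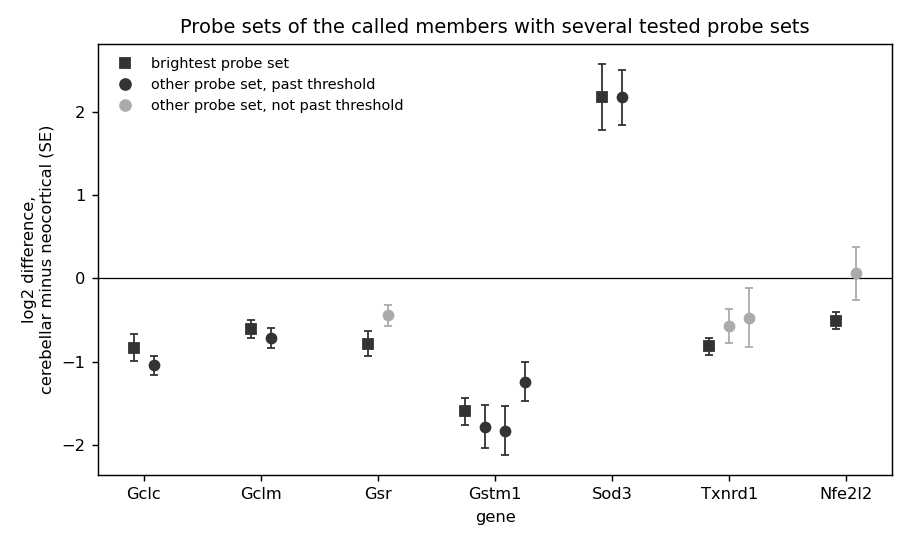
Log2 difference (cerebellar minus neocortical, vertical axis, with SE) of every tested probe set of the 7 called members that had more than 1. Squares are the brightest probe set of a gene, dark circles other probe sets past the threshold and grey circles those that did not pass. All probe sets passed for Gclc, Gclm, Gstm1 and Sod3, and no probe set passed in the opposite direction.

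None of the 5 glutathione peroxidases passed the limma threshold, and 2 had an unadjusted p under 0.05. The share of all genes at that unadjusted level is not given here. Gpx1, the cytosolic enzyme, read 37155, 33576 and 25452 on cerebellar and 41244, 39541 and 36617 on neocortical arrays, with 1 cerebellar array inside the neocortical range (-0.30 ± 0.131 SE). Gpx4, which reduces lipid peroxides in membranes, had a log2 difference of -0.08 with a 95% interval from -0.28 to 0.12. Gpx3, the secreted enzyme, was lower on every cerebellar array, at 2027, 1927 and 1676 against 3163, 2156 and 3004 (-0.55 ± 0.168 SE, limma adjusted p = 0.0715). Its adjusted p was 0.0338 without neocortical replicate 2 and 0.0365 with arrays scaled by their median. Gpx7 and Gpx8, which sit in the endoplasmic reticulum, had positive differences of 0.31 ± 0.218 and 0.19 ± 0.094 (log2 ± SE) and overlapping groups.

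The superoxide dismutases turn superoxide into hydrogen peroxide in different places, and Sod3 was the one that passed. Sod3, the secreted extracellular enzyme, read 7876, 5195 and 3119 on cerebellar and 1941, 702.8 and 1007 on neocortical arrays. The lowest cerebellar value was above the highest neocortical one, although both groups were widely spread, and Sod3 was 4.53-fold higher in cerebellar astrocytes (log2 difference 2.18 ± 0.4 SE, limma adjusted p = 0.0105). A second probe set read 3428, 2616 and 1620 against 764.6, 355.2 and 584.4, a 4.51-fold difference that also passed. Without neocortical replicate 3 the adjusted p was 0.0513, with a log2 difference of 2.10. Sod1, in the cytosol, read 15283, 14759 and 18608 against 16712, 19398 and 17323 with overlap. Sod3 relative to Sod1 on the same array was higher on every cerebellar array, which 3 against 3 arrays cannot take past the threshold (exact permutation p = 0.1, adjusted p = 0.129 over the same 9 pairs). Sod2, in mitochondria, read 7736, 7726 and 8340 against 9286, 8949 and 9035. It did not overlap but was only 1.15-fold lower (-0.20 ± 0.084 SE, limma adjusted p = 0.178). Catalase (Cat), which breaks down hydrogen peroxide, had a log2 difference of -0.23 ± 0.149 (SE) and overlapping groups.

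Markers of fibroblasts and meninges, cells that also make extracellular proteins, were present. All 12 listed genes were tested, 2 of them higher and 2 lower in cerebellar astrocytes, and their summed signal was 126517, 201213 and 307269 on cerebellar arrays 1 to 3 and 155726, 127954 and 190228 on neocortical arrays 1 to 3. The higher markers were Fn1 and Twist1 and the lower ones Ogn and Islr, and the part of these cells in the Sod3 result was not tested. The sum of 8 pericyte and smooth muscle markers was 126363 to 156580 on cerebellar and 166300 to 191674 on neocortical arrays without overlap. Acta2 and Tagln were by far the brightest of them, and Acta2 was lower (1.3-fold, limma adjusted p = 0.0354). Of the 6 tested, 4 had positive differences that did not pass. Des had the largest (4.01-fold, limma adjusted p = 0.06), with 2 arrays at the floor. Kcnj8 and Myh11 lay in the range of the bacterial controls throughout. The summed endothelial markers were 1600 to 3224 against 2541 to 3226, with Cldn5, Tek and Pecam1 in the range of the bacterial controls. Of the 3 tested, Kdr was 2.96-fold lower without overlap (limma adjusted p = 0.00304), and the others did not pass.

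**Figure D4:**
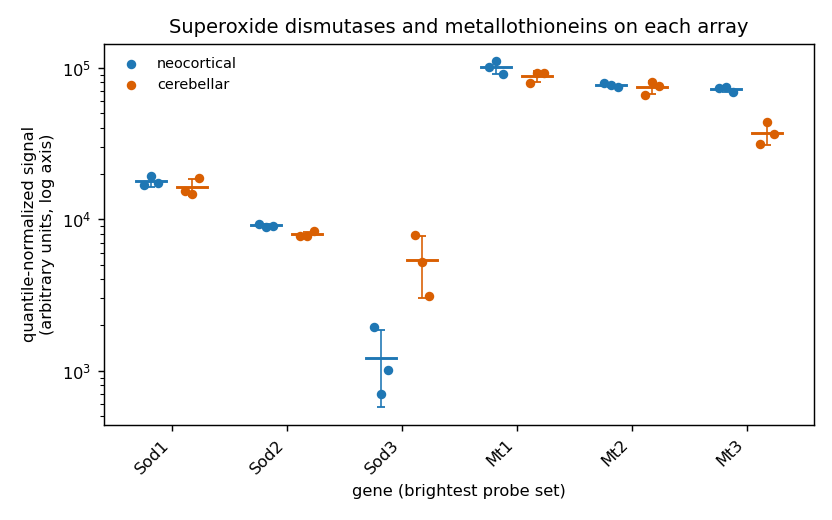
Quantile-normalized signal (arbitrary units, log axis) of the superoxide dismutase and metallothionein genes on each array, with the mean as a bar and the SD as a whisker (n = 3 arrays per region). Sod3 is higher on all cerebellar arrays and Mt3 is lower on all of them, while the regions overlap for Sod1, Mt1 and Mt2.

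In the thioredoxin system the reductase was the member that passed. Txnrd1, the cytosolic thioredoxin reductase, read 6652, 7037 and 5679 on cerebellar and 11358, 10630 and 12011 on neocortical arrays. The gap between groups was wide beside the spread within them, and Txnrd1 was 1.76-fold lower in cerebellar astrocytes (-0.82 ± 0.106 SE, limma adjusted p = 0.00197). Its other 2 probe sets were dimmer and had log2 differences of -0.57 and -0.47 that did not pass, and with the mean of all probe sets the adjusted p was 0.0586. Its substrate Txn1, thioredoxin, read 38779, 47568 and 50179 against 38695, 49855 and 43258, with overlap and a 95% interval of the log2 difference from -0.22 to 0.32. Srxn1, the sulfiredoxin that repairs over-oxidised peroxiredoxins, had a log2 difference of -0.21 ± 0.135 (SE).

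The peroxiredoxins, which reduce peroxides with electrons from thioredoxin, did not pass. Prdx2 read 37468, 37580 and 35650 on cerebellar and 39785, 40136 and 40136 on neocortical arrays. Prdx3, the mitochondrial form, read 6781, 7006 and 7047 against 7758, 7772 and 7877. Both were lower without overlap, by 1.09-fold and 1.12-fold. With the mean of its probe sets Prdx2 passed, at a log2 difference of -0.38 (limma adjusted p = 0.0304). Its other probe set was far dimmer, at 411.7 to 775.6, with a log2 difference of -0.63 ± 0.204 (SE, limma adjusted p = 0.0845). Neither probe set passed by itself. Prdx4, of the endoplasmic reticulum, had a log2 difference of 0.04 with a 95% interval from -0.19 to 0.26.

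Hmox1, the inducible haem oxygenase, was higher in cerebellar astrocytes. It read 5753, 4412 and 5027 on cerebellar and 3696, 3269 and 3571 on neocortical arrays. The groups did not overlap, and the difference was 1.44-fold (0.52 ± 0.123 SE, limma adjusted p = 0.0297). This call was lost with every neocortical array left out in turn (adjusted p = 0.0792, 0.109 and 0.0963) and without cerebellar replicate 1 or 3 (0.0618 and 0.068). It was also lost when arrays were scaled by their median (log2 difference 0.34, adjusted p = 0.194). Hmox2, the constitutive form, read 3988, 4710 and 4621 against 3715, 4088 and 3607 (0.22 ± 0.112 SE). On the same array, Hmox1 relative to Hmox2 lay 0.64, 0.02 and 0.24 (log2) from its neocortical mean on the cerebellar arrays. The regions overlapped for this ratio (exact permutation p = 0.3, adjusted p = 0.3 over the same 9 pairs). Nqo1, a quinone reductase and a common readout of Nrf2, read 593.4, 628.0 and 781.0 against 730.7, 756.4 and 758.9 with overlap (-0.18 ± 0.183 SE). Macrophages are also rich in Hmox1, and all 12 markers of microglia and macrophages were bright enough to be tested. None of them passed the limma threshold, and 0 was also the count at an unadjusted p under 0.05. Their summed signal ran from 10523 to 51182 on cerebellar and from 15988 to 45738 on neocortical arrays, with overlap, and the part of these cells in the Hmox1 result was not tested.

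Metallothioneins are small cysteine-rich proteins that bind zinc and copper and scavenge radicals. Mt1 and Mt2 are induced by metals and stress, and Mt3 is the form typical of the brain. Mt3 read 31336, 44141 and 36309 on the cerebellar arrays and 73441, 74608 and 69113 on the neocortical arrays. Every cerebellar value was far below the neocortical ones, and Mt3 was 1.96-fold lower (-0.97 ± 0.116 SE, limma adjusted p = 0.00133). Mt1 read 79531, 92667 and 91770 against 100501, 110447 and 91464, and Mt2 read 66475, 80927 and 75815 against 78968, 77307 and 74608. Both overlapped between regions, with 95% intervals of the log2 difference from -0.40 to 0.01 for Mt1 and from -0.24 to 0.13 for Mt2. On the same array Mt3 relative to Mt1 lay -0.87, -0.60 and -0.86 (log2) from its neocortical mean on the cerebellar arrays, and relative to Mt2 it lay at -0.996, -0.786 and -0.973. Each of these ratios was below all neocortical ones (exact permutation p = 0.1, adjusted p = 0.129 over 9 pairs). All 3 genes were among the brightest on the array, with Mt1, Mt2 and Mt3 at percentiles 99.93, 99.84 and 99.55 of all probe sets. Mt3 and Gstm1 were the members whose call held under each of the 16 alternative settings, with highest adjusted p values of 0.0413 and 0.0346.

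The 3 genes lie in 1 cluster of 27.7 kb on chromosome 8 (GRCm38.p6), in the order Mt3, Mt2, Mt1 and all on the plus strand. Their windows are printed because neighbouring genes differed in outcome, with capitals marking the core of the metal response element, TGCACNC or TGCGCNC, on either strand. The core is short and was found in 28.6% of the 35 members and 23.8% of all genes with such a window. Mt2 held 3 matches, Mt1 held 1 and Mt3 held 0 in these 250 bases. As above, a match describes letters and is not evidence of binding, and its part in the Mt3 result was not tested. The windows are not alike in position, because the start used for Mt1 lies inside the annotated gene and 206 of the 250 bases are within it, against 0 for Mt2 and Mt3.
Mt3 (chr8:94152357-94152606, plus strand): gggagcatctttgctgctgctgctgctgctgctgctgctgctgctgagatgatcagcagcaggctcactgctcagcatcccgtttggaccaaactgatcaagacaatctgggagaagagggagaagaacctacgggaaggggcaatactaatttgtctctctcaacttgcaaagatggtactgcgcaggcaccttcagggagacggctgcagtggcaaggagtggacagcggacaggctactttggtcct
Mt2 (chr8:94172368-94172617, plus strand): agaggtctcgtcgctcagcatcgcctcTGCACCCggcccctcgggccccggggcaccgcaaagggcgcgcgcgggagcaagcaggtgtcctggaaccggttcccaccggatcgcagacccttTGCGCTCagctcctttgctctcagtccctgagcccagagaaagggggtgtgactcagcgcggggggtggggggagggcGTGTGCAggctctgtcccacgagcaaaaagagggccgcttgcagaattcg
Mt1 (chr8:94178839-94179088, plus strand): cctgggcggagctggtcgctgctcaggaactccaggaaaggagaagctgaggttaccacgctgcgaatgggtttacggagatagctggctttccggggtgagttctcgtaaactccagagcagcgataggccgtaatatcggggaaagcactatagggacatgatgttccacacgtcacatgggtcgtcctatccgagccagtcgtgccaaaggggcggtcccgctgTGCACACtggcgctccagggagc

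A companion set of 110 genes that supply or extend these systems was read in the same fit. Of 92 tested, cerebellar astrocytes had lower signal for 12 and higher signal for 4. The lower share was 13%, against the background of 7.36%, and the higher share 4.35% against 5.3%. The median log2 difference was -0.10. Without neocortical replicate 1, 2 or 3 the lower companions numbered 4, 5 and 3, and there was 1 higher companion without neocortical replicate 1 or 2 or cerebellar replicate 3. With the replicate number as a block there were 6 higher and 11 lower companions. Selenop (limma adjusted p = 0.0162) and Cp (0.0369) were then also higher and Ugdh (0.0362) lower, and Abcc4 (0.0547) and Gstm6 (0.0511) no longer passed.

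Of 16 tested genes of glutathione supply and turnover, 5 were lower and 1 was higher. Cth, cystathionine gamma-lyase, which makes cysteine from methionine, read 773.5, 377.6 and 404.4 on cerebellar and 1545, 1618 and 1525 on neocortical arrays. It was 3.18-fold lower with no overlap (limma adjusted p = 0.00548). Ggct, which breaks down gamma-glutamyl dipeptides, read 2327, 1260 and 2124 against 795.8, 596.2 and 667.7 and was 2.7-fold higher (limma adjusted p = 0.00735). The others that were lower were Chac1, a glutathione-degrading enzyme, the export pump genes Abcc1 and Abcc4, and Hagh, which frees glutathione in the glyoxalase pathway, by 1.4-fold to 1.61-fold. Slc7a11, the cystine importer, read 162.5, 776.8 and 2241 on cerebellar and 361.9, 172.2 and 445.5 on neocortical arrays, with overlap. Its log2 difference was 1.12 ± 0.809 (SE) and did not pass (limma adjusted p = 0.425).

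Among other transferases and related enzymes, 3 of 11 were lower and 1 was higher. Gstt3 was 2.33-fold, Gstm7 2.13-fold and Gstm6 3.05-fold lower, the last with 1 cerebellar array at the floor and a cerebellar mean of 105.5 inside the range of the bacterial controls. Ptges, a prostaglandin E synthase that uses glutathione, was 2.01-fold higher. Of 8 tested genes of NADPH supply, which feeds both reductases, 3 were lower and 1 was higher. Malic enzyme (Me1) read 4215, 3569 and 4002 on cerebellar and 6842, 6335 and 8011 on neocortical arrays and was 1.79-fold lower. Mitochondrial isocitrate dehydrogenase (Idh2) was 1.7-fold and transketolase (Tkt) 1.43-fold lower, and 6-phosphogluconate dehydrogenase (Pgd) was 1.44-fold higher.

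Of 20 tested Nrf2 partners and other known targets, 1 was lower and 1 was higher. These were Ephx1, an epoxide hydrolase (1.4-fold lower), and Akr1b8, an aldo-keto reductase (1.66-fold higher). Of the 20, 15 had negative and 5 positive differences, against 6542 negative and 6074 positive among all 12616 genes. None of 24 tested thioredoxin and glutaredoxin genes and none of 13 tested metal-handling genes passed the limma threshold. At an unadjusted p under 0.05 the counts were 5 of 24 and 2 of 13, and 6 of 20 for the Nrf2 list. The share of all genes at that unadjusted level is not given here, so these counts have no background. Mtf1, the factor that binds metal response elements, had a log2 difference of 0.16 with a 95% interval from -0.15 to 0.46.

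**Figure D5:**
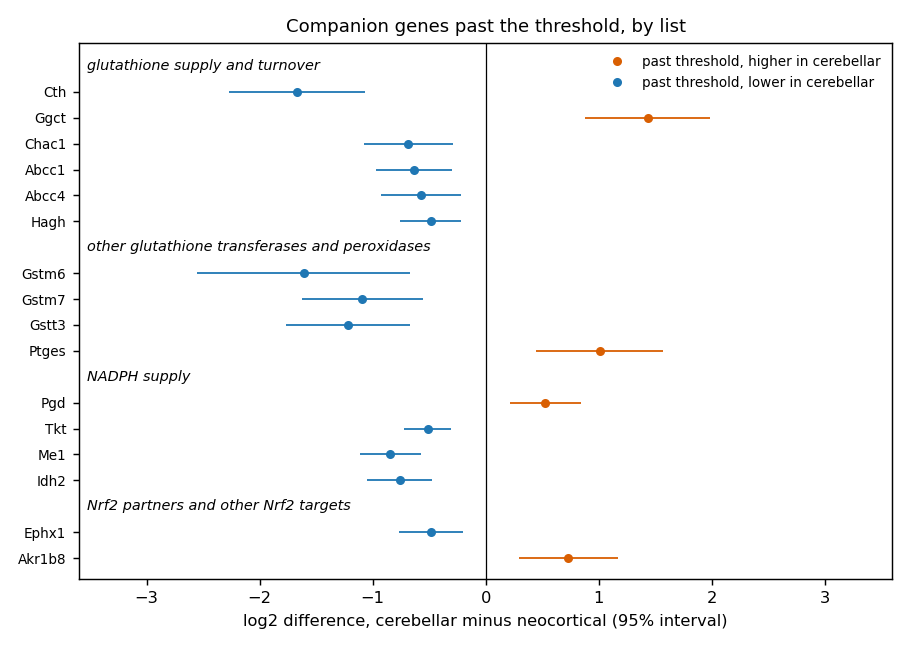
Fitted log2 difference (cerebellar minus neocortical, horizontal axis) with its 95% interval, not adjusted for the number of genes, for the 16 companion genes past the threshold, grouped by list. The 12 blue points are lower and the 4 orange points higher in cerebellar astrocytes, with Cth at -1.67 and Ggct at 1.43.

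Other cell types were gauged by lists of their markers. All 8 astrocyte markers were tested, and their sum was 133823 to 198916 on cerebellar and 169434 to 215503 on neocortical arrays, with 1 marker higher and 2 lower. Among the cerebellar arrays this sum was lowest for replicate 1 and highest for replicate 3. Gclc, Mt3 and Gstt1 were lowest on replicate 1, Gclm on replicate 2, and the other 5 lower members on replicate 3. The part of astrocyte content in the lower members was not tested. The sum of 10 choroid plexus and ependymal markers was 15299 to 25893 on cerebellar and 27278 to 30162 on neocortical arrays without overlap, with 3 of 9 tested lower, 0 higher and Kl in the range of the bacterial controls. The 3 lower markers were Folr1, Kcnj13 and Otx2, and all 9 tested had negative differences. The brightest of this list, Foxj1 and Enkur, overlapped between regions (log2 differences -0.24 and -0.02). The part of these cells, and of pericytes and smooth muscle, in the lower members was not tested. Sums of oligodendrocyte lineage markers ran from 53464 to 82304 against 72822 to 84374, with Mobp, Mag and Mog in the range of the bacterial controls. Of the 6 tested markers in this list, Olig1 and Olig2 were lower without overlap (3.33-fold and 5.99-fold, limma adjusted p = 0.00129 and 0.000499). Mbp was 6.27-fold higher (limma adjusted p = 0.0134). Its neocortical values were 209, 58.8 and 288.4, with 1 array at the floor and a mean of 185.4 inside the range of the bacterial controls. The part of these cells was not tested either. Sums of neuronal markers ran from 15595 to 24915 against 22597 to 24210, with 2 of 6 tested lower and Tubb3, Slc17a7, Nefl and Snap25 in the range of the bacterial controls. The 4 erythroid markers with a probe set lay in that range on every array.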

How the data were processed

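The values the authors deposited are linear intensities, 1 for each probe set on each array. How probes were summarised is not given in the sources used here. On all 6 arrays the mean trimmed by 2% at each end was 1500, and medians ran from 284.7 to 361.2. Control probe sets were set aside. Quantile normalization was applied to the remaining 45037, a floor was set at the 20th percentile (62.2), and log2 was taken. The 27022 probe sets with a mean at or above the 40th percentile entered the fit, made in R 4.3.3 with limma 3.58.1 (two-sided, eBayes with a variance trend), with Benjamini-Hochberg adjustment over all of them. Folds are from fitted log2 differences, and positive differences mean higher signal in cerebellar astrocytes. Errors are standard errors of the fit, with 3 arrays per region, whose number limits the precision.

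Genes were named from the platform annotation, updated by Entrez ID through the GRCm38.p6 gene table, and a gene's brightest probe set represents it. Of the analysed probe sets, 34945 had 1 symbol, 932 several and 9160 none. The dim range is described by 24 controls for bacterial and phage sequences, which read up to 269.2. The companion lists and marker lists are counted, with no set test. Members and lists were chosen with earlier results of these data known. All members are accounted for, and those past the threshold, the metallothioneins, Gclc and Gclm are given array by array, as are further members where their groups bear on a comparison. Of the companions, up to 6 genes past the threshold with the largest differences in each direction are named, and the rest of those past the threshold were added after their values were seen.

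Arrays share the numbers 1 to 3 in the labels. The deviations from the group mean were correlated between regions at 0.18, 0.188 and 0.101 for arrays with the same number. For the others the correlation was -0.182 to 0.0225. Arrays with the same number were thus more alike, but the labels do not state a pairing. The main fit and the permutation tests did not use the numbers. The fit with the replicate number as a block is given where it changed a call. The fit was tested on simulated data. Alternatives covered normalization, floor, filter, variance trend, choice of probe set, replicate block and each array left out. Promoter windows are from RefSeq (GRCm38.p6).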

Additional observations from a re-analysis of the deposited data

How the results depend on the processing

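The 9 lower and 2 higher members were set against 16 alternatives, and their median of -0.14 stayed negative in each. Scaling each array by its median shifted the typical probe set, whose log2 difference went from 0.01 to -0.10, and took the member median to -0.26, with 1 higher and 12 lower members and 819 higher and 2105 lower probe sets, against 1319 and 1545. The values as deposited gave a member median of -0.094 and 1586 higher and 1447 lower probe sets. With no filter on dim probe sets there were 0 higher members, 1 higher and 1 lower companion, and 577 higher and 704 lower probe sets of 45037 tested. Without a variance trend there were 0 higher and 5 lower members, 1 higher and 6 lower companions, and 676 higher and 914 lower probe sets. Leaving out probe sets with a suffix gave 2 higher companions. With each array left out in turn, the counts ran from 0 to 2 for higher and from 4 to 9 for lower members, from 1 to 4 for higher and from 3 to 10 for lower companions. They ran from 547 to 1230 for higher and from 654 to 1554 for lower probe sets, and the member median from -0.187 to -0.110. With the replicate block 11 members were lower and 2 higher, Gstm2 and Gsta4 being added. The block changed no other member's call. It gave 6 higher and 11 lower companions, changing 5 calls. The cause of these changes was not tested, beyond the fewer arrays or larger number of tests that a setting itself brings. With 3 arrays per region, small differences can be missed.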
